A study of Mus musculus with 2 samples.

Results

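Smad2/3 binding was examined at 5 genes whose products hold cells to each other, to the matrix or to the cytoskeleton, namely the integrin subunits Itgb6 and Itga5, the cadherins Cdh1 and Cdh2, and vimentin (Vim). The members were the regions of the deposited list whose centre lay in a window given for each gene in the mouse build mm9. They came to 17 of the 5847 regions, with 8 in the Itgb6 window, 5 in the Cdh1 window, 3 in the Cdh2 window, 1 in the Vim window and 0 in the Itga5 window. The list came from 1 anti-Smad2/3 chromatin immunoprecipitation sequencing (ChIP-seq) library of NMuMG, an epithelial line from the mouse mammary gland, and an input library of the same cells had no processed file among those used here. The cells of both libraries had received 1.5 h of TGF-beta3 (1 ng/ml) in the presence of 10% serum, and the maintenance medium also held 10 ug/ml insulin. Untreated cells and replicates were not part of the data, so every value below describes 1 library after treatment and says nothing of change with TGF-beta. A region is a stretch that the authors' peak calling reported, and reads, heights and sequencing depth are unknown.

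TGF-beta signals through a receptor kinase that phosphorylates Smad2 and Smad3, which join Smad4, enter the nucleus and bind DNA together with other transcription factors. In mammary epithelial cells prolonged TGF-beta drives an epithelial-mesenchymal transition, in which cells lose E-cadherin, the adherens junction protein encoded by Cdh1, and gain N-cadherin (Cdh2), the intermediate filament protein vimentin and fibronectin receptors. Itga5 encodes the alpha subunit of the main fibronectin receptor. Itgb6 encodes the beta subunit of an epithelial integrin that binds the latent form of TGF-beta and activates it. By these roles Itgb6 and Cdh1 are treated here as epithelial genes, and Itga5, Cdh2 and Vim as mesenchymal genes.

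The promoter sequences are shown for the gene with the most regions (Itgb6), the gene with none (Itga5) and the gene with 1 (Vim). They are the 250 bases before the first listed start site in RefSeq on GRCm38.p6, written 5′ to 3′ on the gene's strand. Capitals mark a match to CAGAC or its reverse complement GTCTG, the short Smad-binding element.
Itgb6: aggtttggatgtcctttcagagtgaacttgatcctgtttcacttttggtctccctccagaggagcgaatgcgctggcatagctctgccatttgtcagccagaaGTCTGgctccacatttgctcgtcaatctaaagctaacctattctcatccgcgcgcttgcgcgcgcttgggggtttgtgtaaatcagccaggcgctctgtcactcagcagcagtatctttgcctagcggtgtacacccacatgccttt
Itga5: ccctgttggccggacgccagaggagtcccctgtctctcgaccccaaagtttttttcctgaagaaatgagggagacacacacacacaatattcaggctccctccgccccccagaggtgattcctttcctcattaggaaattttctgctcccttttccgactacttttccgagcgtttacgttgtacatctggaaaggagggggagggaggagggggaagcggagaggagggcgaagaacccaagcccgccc
Vim: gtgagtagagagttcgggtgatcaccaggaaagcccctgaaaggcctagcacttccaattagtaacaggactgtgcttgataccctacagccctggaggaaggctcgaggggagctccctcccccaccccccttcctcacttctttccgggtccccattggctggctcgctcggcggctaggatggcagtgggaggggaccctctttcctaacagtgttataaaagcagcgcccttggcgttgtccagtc
The Itgb6 stretch lies on the minus strand at chr2:60722604-60722853, that of Itga5 on the minus strand at chr15:103366792-103367041, and that of Vim on the plus strand at chr2:13574061-13574310. These positions are of another build than the binding regions and cannot be set against them. The promoter sequences were matched for 3 of the 5 genes, and those of Cdh1 and Cdh2 were not analysed here.

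Itgb6 held the only CAGAC match of the 3, which began 147 bases before the start site. Of the 32851 RefSeq promoter stretches of this length, 42.2% held CAGAC on either strand, so a single match is common. The palindrome GTCTAGAC, found in 0.167% of all stretches, was in none of the 3, nor were TGANTCA (6.75%, the AP-1 element), CAGGTG or its reverse complement CACCTG (17.2%), CAGCTG (13.0%) and GGCGCC (9.59%). The E-boxes CAGGTG and CAGCTG are of the kind bound by repressors of the Snail and Zeb families. A second listed start site of Itgb6 had no CAGAC but 1 CACCTG, beginning 60 bases before it. A match describes letters in this stretch and is not a measured binding site.

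Itgb6 was the member with the most Smad2/3 regions, and 6 of its 8 formed one cluster. The Itgb6 window, on chromosome 2 from 60.34 to 60.66 Mb, held 25 regions per Mb (exact Poisson 95% interval 10.8 to 49.3), against 2.46 over chromosome 2. When the span of every chromosome was divided into windows of the same 320 kb, 33.5% held at least 1 region and 0.62% held 8 or more. Such windows take in stretches with few genes as well as gene-rich ones. In the 10 windows of this length beside the Itgb6 window, 6 regions were found in all, 0 to 3 per window, and 6 of the windows were empty. The Itgb6 window thus held more regions than its 10 neighbours together.

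**Figure D1:**
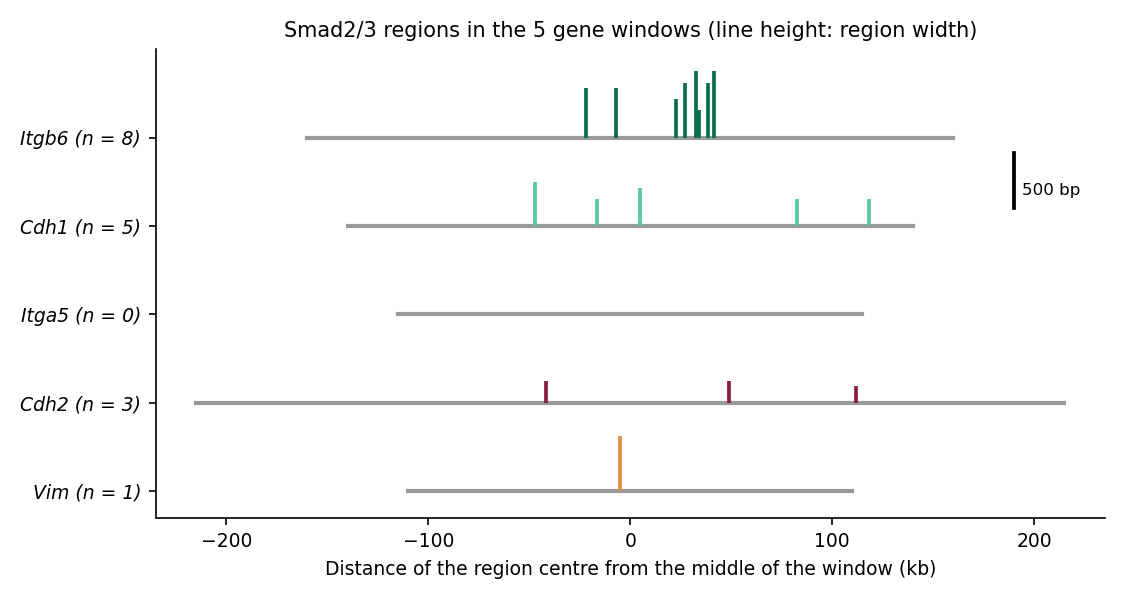
Positions of the 17 Smad2/3 regions in the 5 gene windows, with distance from the middle of the window in kb on the horizontal axis. Grey lines span each window and the height of a coloured line is the region's width, with a bar of 500 bp as the scale. Itgb6 carries 8 regions, 6 of them close together, and Itga5 carries 0.

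The cluster at Itgb6 ran from 60522301 to 60541949 of chromosome 2, spanned 19.6 kb and had 2794 bp covered by regions. Regions are called linked when at most 12500 bp separate their centres, and 3 or more linked in a row make a cluster. The centres of the 6 regions stood 1.23 to 5.55 kb apart. Of the 237 clusters in the list, 11 had 6 or more regions and 4 had more than 6. Of all regions, 1.23% were in a cluster of 6 or more regions.

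Its region farthest along the chromosome, at 60541351 to 60541949, was 599 bp wide and number 40 in the list. The one before it, at 60538051 to 60538549, was 499 bp wide and number 415. A narrower region of 249 bp, at 60533901 to 60534149, stood late in the list, at number 4824. It lay 1.23 kb from the region at 60532501 to 60533099, which was 599 bp wide and number 94. The remaining pair were a region of 499 bp at 60527001 to 60527499, number 1761, and one of 349 bp at 60522301 to 60522649, number 2973. Early and late entries of the list thus stood side by side in this cluster.

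Both Itgb6 regions outside the cluster were 449 bp wide. The first lay at 60477751 to 60478199 with number 2275, and the second at 60492851 to 60493299 with number 3845. They stood 15.1 kb from each other, and the second stood 29.4 kb from the cluster. Beyond the cluster no region followed for 167 kb. Before the first Itgb6 region the chromosome was empty for 1390 kb. In RefSeq order the nearest protein-coding genes are Ly75 and Pla2r1 on one side of Itgb6 and Rbms1 and Tank on the other, and which gene a region of the window acts on was not determined.

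**Figure D2:**
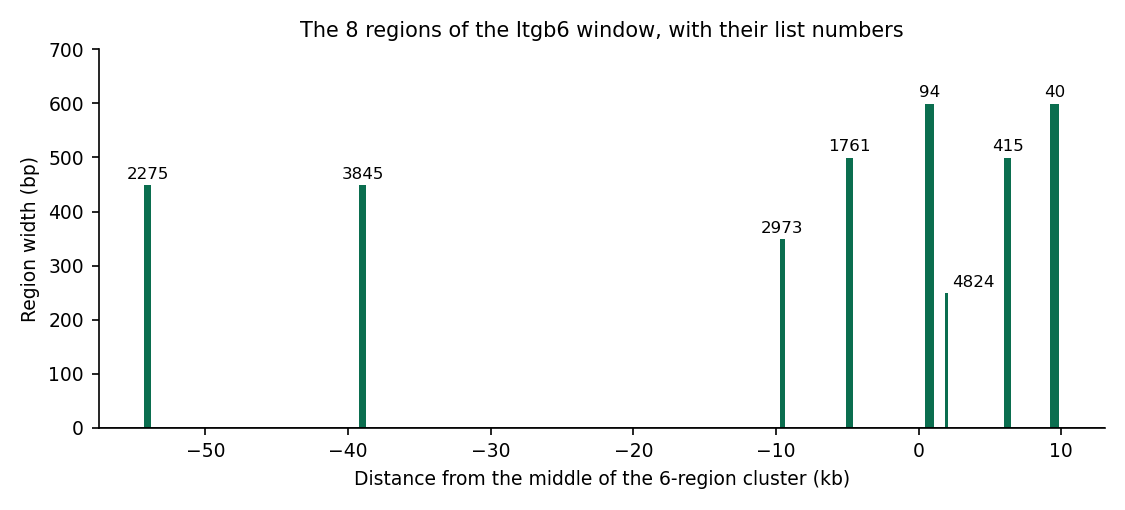
The 8 regions of the Itgb6 window, with distance from the middle of the cluster in kb on the horizontal axis and region width in bp on the vertical axis (bars are drawn to scale in both directions). The number above each bar is its list number. The 2 regions of 599 bp carry numbers 40 and 94, and the narrowest, of 249 bp, carries 4824.

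The Itgb6 regions reached the front of the list. Whether the list order ranks the regions by strength is not stated. Among the first 100 regions of the list, which are 1.71% of it, 2 lay in the Itgb6 window and 0 in the other 4 windows. Of all 320 kb windows, 0.0633% held at least 2 of the first 100 regions and 1.2% held at least 1. Of the 237 clusters, 2 held at least 2 of the first 100 regions, the cluster at Itgb6 and 1 on chromosome 4 from 149232701 to 149261549. These counts of early regions were chosen after the list numbers had been seen.

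The Cdh1 window held 5 regions, spread singly, and which gene each acts on was not determined. The window, on chromosome 8 from 109.02 to 109.3 Mb, had 17.9 regions per Mb (exact Poisson 95% interval 5.8 to 41.7), against 2.63 over chromosome 8. Of all 280 kb windows, 30.8% held at least 1 region and 2.41% held 5 or more. The 10 windows beside it held 13 regions, 0 to 5 per window, and 1 of them equalled the Cdh1 window with 5. The surroundings of Cdh1 were denser than those of Itgb6, with 4.64 regions per Mb (95% interval 2.47 to 7.94) against 1.88 (0.688 to 4.08), although these intervals overlap.

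The earliest Cdh1 region in the list was number 669, at 109112551 to 109112949, and was 399 bp wide. The region at 109143451 to 109143699 was 249 bp wide and number 2502. Near the middle of the window, the region at 109164851 to 109165199 was 349 bp wide and number 2143. The last 2 were each 249 bp wide and stood late in the list, with number 5711 at 109242251 to 109242499 and number 4256 at 109277601 to 109277849. Neighbouring centres were 21.4 to 77.3 kb apart, so none of the 5 was in a cluster. Next to the window, a region of 649 bp with number 177 lay 118 kb before its edge. In RefSeq order Cdh1 is preceded by Cdh3, which encodes P-cadherin, another epithelial cadherin, and followed by Tango6 and Has3, the latter a hyaluronan synthase.

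The Cdh2 window held 3 narrow regions, all late in the list. It lay on chromosome 18 from 16.64 to 17.07 Mb and held 6.98 regions per Mb (exact Poisson 95% interval 1.44 to 20.4), against 2.42 over chromosome 18. Of all 430 kb windows, 40.6% held at least 1 region and 13.8% held 3 or more. The 10 windows beside it held 2 regions in all, and 8 of them were empty, so the regions of Cdh2 stood in a sparse stretch. Before the window the nearest region was 733 kb from its edge, and after it 3230 kb.

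The first Cdh2 region, at 16813451 to 16813649, was 199 bp wide and number 4869. The second, at 16903701 to 16903899, was also 199 bp wide and was number 3487. The third, at 16967051 to 16967199, was 149 bp wide and number 5250. All 3 were under 200 bp, as were 16.4% of the list. They were narrow for their place in the list too, since 88.1 to 99% of the 201 regions nearest to each in list number were at least as wide. The same share was 52.7 to 98% for the 5 Cdh1 regions, and 74.2 and 74.3% for the Itgb6 regions with numbers 94 and 40. The centres of the Cdh2 regions were 63.3 and 90.2 kb apart. The next genes in RefSeq order are Aqp4 and Chst9 on one side and the desmosomal cadherins Dsc3 and Dsc2 on the other.

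The Vim window held 1 region, near its middle. The window lay on chromosome 2 from 13.39 to 13.61 Mb and had 4.55 regions per Mb (exact Poisson 95% interval 0.115 to 25.3), and 26.1% of all 220 kb windows held at least 1 region, so a window with a region is not rare. The region, at 13494901 to 13495399, was 499 bp wide and number 5419, with its centre 4.85 kb from the middle of the window. It was wider than most regions so late in the list. Of the 201 regions around it in the list, with a median width of 249 bp, 9.95% were at least as wide, and of the last 584 regions of the list 8.05% were at least 499 bp wide, against 27.4% of all regions. The nearest other region was 122 kb away. The adjoining 220 kb on the lower side held 5 regions of 349 to 599 bp with numbers 243 to 4825, the nearest of them 17.1 kb from the edge of the Vim window. The genes on that side in RefSeq order are Trdmt1 and Cubn, and those on the other side are St8sia6 and Hacd1.

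The Itga5 window held 0 regions. It lay on chromosome 15 from 103.07 to 103.3 Mb, and 73.2% of all 230 kb windows were likewise empty, so the gap at Itga5 is the common case for this list. An absent region means only that none was called, since depth and threshold are unknown. A cluster of 3 regions stood just outside, 6.38 to 25.3 kb below the lower edge of the window. Its members were 249 bp wide with number 4077, at 103063501 to 103063749, then 349 bp with number 2340, at 103051951 to 103052299, and 149 bp with number 5423, at 103044651 to 103044799. No region of the list lay beyond the window toward the end of the chromosome, so only the 5 windows on the lower side were counted, and these held 6 regions. The genes next to Itga5 in RefSeq order are Zfp385a and Gpr84 on one side and Gtsf1 and Gtsf2 on the other.

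**Figure D3:**
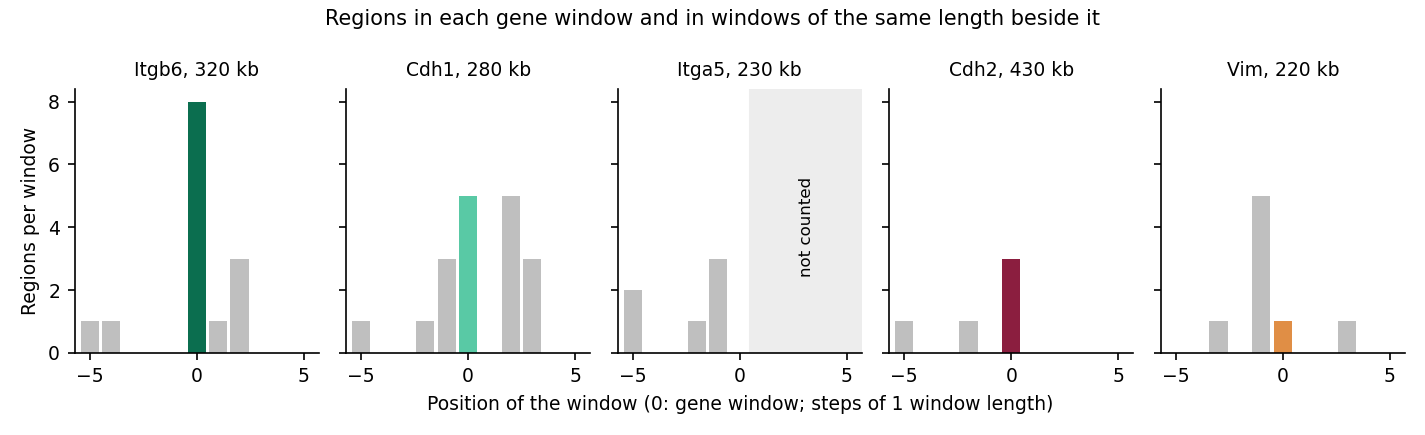
Number of regions in each gene window (coloured, position 0) and in up to 5 windows of the same length on each side (grey), with the window length above each panel. The Itgb6 window holds 8 regions and no window beside it holds more than 3. At Vim the adjoining window holds 5 against 1, and beyond Itga5 no region is listed, so that side was not counted.

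Epithelial windows held more regions than mesenchymal windows in this list. The genes, windows and classes were chosen with earlier results of these data known, so this contrast is a description. Itgb6 and Cdh1 together had 13 regions in 0.6 Mb, or 21.7 per Mb (exact Poisson 95% interval 11.5 to 37.1). Itga5, Cdh2 and Vim together had 4 in 0.88 Mb, or 4.55 per Mb (1.24 to 11.6). The whole list had 2.31 per Mb. The ratio of epithelial to mesenchymal windows was 4.77 (exact 95% interval 1.47 to 20.1). With the linked regions of the Itgb6 cluster counted once, a choice made after seeing the data, the ratio was 2.93 and its interval, 0.786 to 13.3, included 1. With 50 kb added on both sides of every window, the epithelial windows had 17.5 and the mesenchymal windows 6.78 regions per Mb, and the ratio of mesenchymal to epithelial went from 0.21 to 0.387, with Itga5 at 3 regions and Vim at 2. That ratio was 0.0758 over regions of at least the median width, 0 over the first 2923 regions and 0.103 without the Cdh2 window. The intervals cover counting error in 1 library, the genes are not replicates of a class, and no test was made. The intervals also treat regions as independent, whereas 37.1% of the list had a linked neighbour. Windows of 320 kb held 0.735 regions on average but up to 18. The intervals are therefore likely too narrow.

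The genes of the pairs compared here could not be told apart by their density, and no ratio was computed for other pairs. Itgb6 and Cdh1, both epithelial, differed by a ratio of 1.40 in regions per Mb, with an interval of 0.404 to 5.44 that includes 1. Between the cadherins of the 2 classes, the Cdh1 window had 2.56 times the density of the Cdh2 window, and that interval, 0.498 to 16.5, also includes 1. With so few regions both intervals are wide, so they show neither a difference nor equal densities. In order of regions per Mb the genes stood as Itgb6, Cdh1, Cdh2, Vim and Itga5, and the intervals of neighbours in this order overlap.

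Widths and list numbers are given for the 2 classes as a description, and no difference was tested. The 13 epithelial regions were 249 to 599 bp wide with a median of 399 bp, and the 4 mesenchymal regions were 149, 199, 199 and 499 bp wide. The wider epithelial regions were those of Itgb6, with a median of 474 bp, whereas Cdh1 had a median of 249 bp and a maximum of 399 bp, below the Vim region. In the first 2923 entries of the list, which are 50.0% of it, stood 8 of the 13 epithelial regions (61.5%, exact 95% interval 31.6 to 86.1%) and 0 of the 4 mesenchymal regions (exact 95% interval 0 to 60.2%). These intervals overlap, and both include the 50.0% of the list. The earliest mesenchymal region was number 3487. By gene, 5 of 8 Itgb6 regions and 3 of 5 Cdh1 regions stood in that part of the list. The list numbers of the 2 classes overlapped, since 5 epithelial regions came later than number 2923 and the latest, at Cdh1, was number 5711.

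**Figure D4:**
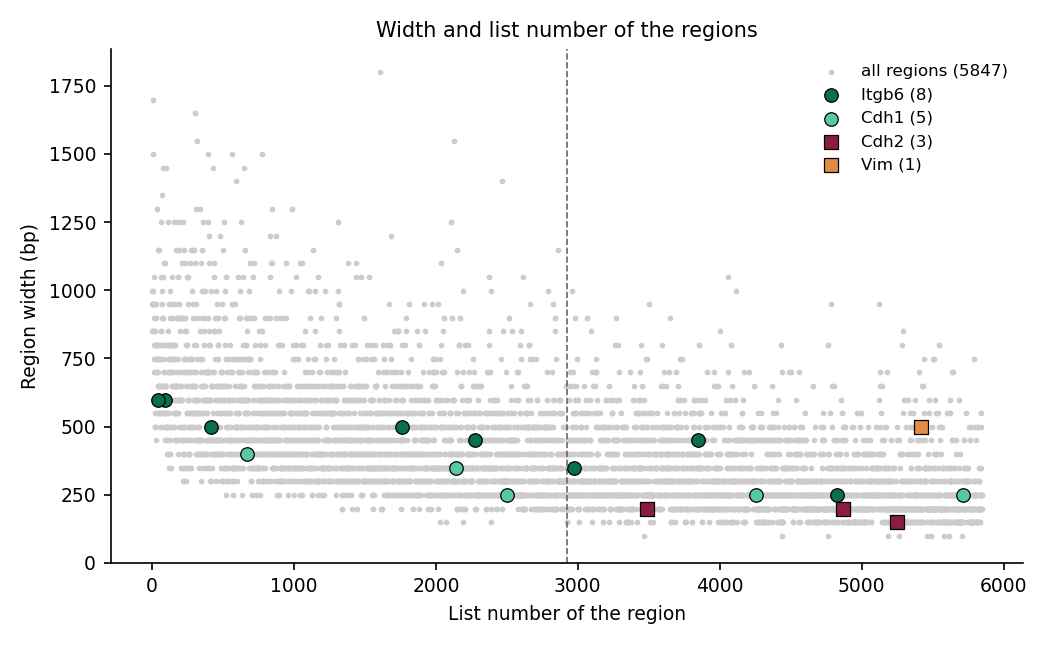
Region width in bp against list number for all 5847 regions (grey) and the 17 regions of the gene windows (circles for epithelial genes, squares for mesenchymal genes), with a dashed line at number 2923. The 3 Cdh2 squares lie at the lower edge of the cloud, the Vim square lies above most regions of similar number, and Itgb6 circles at 40 and 94 lie at the far left.

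As 1 set, the 17 regions had the width and list position of the rest of the list. The median width was 349 bp in both the 17 regions and the 5830 others, with quartiles of 249 and 499 bp in each, and the median list number was 2973 against 2923.5. In the first part of the list stood 8 of 17 (47.1%, exact 95% interval 23.0 to 72.2%). At least 499 bp were 5 of 17 (29.4%, 10.3 to 56.0%), 4 at Itgb6 and 1 at Vim. The set without Itgb6 was narrower and later, with a median width of 249 bp and a median list number of 4256 over 9 regions.

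Inside the window edges as given, linked regions were found at Itgb6 and in none of the other 4 windows. Outside them stood the cluster of 3 below Itga5, 6.38 to 25.3 kb from the window edge, and 2 linked pairs below Vim, 58.4 to 96.8 kb away. A linked pair also stood below Cdh1, 118 and 119 kb from the edge. A linked neighbour was present for 6 of 17 regions (35.3%, exact 95% interval 14.2 to 61.7%), against 37.1% of the list, and membership in a cluster was also 6 of 17, against 13.9%. All 6 belonged to the Itgb6 cluster, so they share 1 cluster and are not independent. The median distance to the nearest region was 4.06 kb at Itgb6, 30.8 kb at Cdh1 and 63.3 kb at Cdh2, and 27.6 kb in the rest of the list. No region of Cdh1, Cdh2 or Vim had a linked neighbour.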

How the data were processed

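The authors deposited 1 BED list, from the ChIP library. The submitters' processing notes name Bowtie2 and mm9 without their role, and how peaks were called, at which threshold and with what use of the input was not given in the sources used here. All lines carry the same deposited score, 1000, which ranked nothing. Every deposited start was a multiple of 50 bp. Width is the end minus the start as deposited, and positions are printed counted from 1.

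The 5 genes, their windows and the gene classes were chosen with earlier results of these data known. The windows were not checked against an mm9 annotation, which was not used here, so no region is placed in a promoter, exon or intron. Which gene a region acts on was not determined for any window. All 5 genes are named, each with every region of its window. Other integrin, cadherin and filament genes were to be counted with such an annotation and were not analysed. Neighbouring genes come from the order of the RefSeq table (GRCm38.p6), and no coordinates were converted. Same-length windows were laid end to end from the first region centre of each chromosome. Intervals are exact (Poisson, Clopper-Pearson) at 95% and cover counting error only. They treat regions as independent, which linked regions are not. With 1 library no test was made. Alternatives changed the window edges, the overlap rule, the part of the list, merging and the clustering distance. The computations were tested on simulated data. Python 3.11.15, pandas 2.3.3, numpy 2.4.6 and scipy 1.17.1 were used.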

Additional observations from a re-analysis of the deposited data

How the results depend on the processing

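Of 81 values recomputed under an alternative, 64 stayed close to the reported value and 17 moved. For a count of regions per locus, close meant within 1.5 times the count, and for other values within their interval. Of the values, 0 changed direction, but only the ratio of mesenchymal to epithelial windows has a direction to change. With 50 kb added on both sides of each window, Itga5 had 3 regions instead of 0 and Vim had 2 instead of 1. Keeping regions of at least the median width left 2 at Cdh1 and 0 at Cdh2, and 1.14 regions per Mb in the mesenchymal windows. The first 2923 regions of the list left 5 at Itgb6, 3 at Cdh1, 0 at Cdh2 and 0 at Vim, so the mesenchymal windows had 0 per Mb and the ratio of mesenchymal to epithelial windows was 0. Fewer regions enter both alternatives by construction. Counting linked regions once, chosen after seeing the data, left 3 at Itgb6. That ratio was 0.21 as reported and 0.103 to 0.284 without each window in turn, lowest without Cdh2 and highest without Itga5. It was 0.387 in the widened windows. Without chromosome X, the share of same-length windows with at least 1 region was 35.2% for Itgb6, 32.3% for Cdh1, 28.1% for Itga5, 42.5% for Cdh2 and 27.4% for Vim. No paired analysis was possible because the series has only 1 ChIP library. The list holds no depth, so a weak site cannot be told from an unbound one.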
